A study of Mus musculus with 24 samples.

Results

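The genes Scx, Mkx, Tnmd, Thbs4, Comp, Fmod, Chad, Cilp, Cilp2 and Tnxb are described here as the tendon and cartilage matrix genes of a calf muscle data set. They were picked by symbol, with earlier results of these data known. All 10 were found once each among the 36172 gene models that were measured. RNA sequencing was run on whole gastrocnemius, the large calf muscle, of C57BL/6 mice, with 4 libraries in each of 6 groups. Both genotypes carried floxed Notch2 alleles. The WT groups were Notch2f/f, with no Cre. The Notch2-mKO groups were Mlc1fCre/+;Notch2f/f, in which the Cre recombinase sits at the myosin light chain 1f locus and is made by skeletal muscle fibres. Each genotype was sampled as untreated controls, after 7 days of hindlimb suspension (called unloading here) and 14 days after 1 intraperitoneal dose of streptozotocin (STZ) at 150 mg per kg (called diabetes here). STZ destroys insulin-producing cells of the pancreas. The series title concerns muscle atrophy under these 2 treatments in Notch2 deficiency, and the labels give neither age nor sex of the animals. Nor do they say that the 4 libraries of a group came from separate animals, so each p-value reflects only how these samples scatter, which may be technical.

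Muscle ends in tendon at the myotendinous junction, where fibre ends are anchored to collagen, and pieces of tendon and its sheets run into the calf muscle belly. Tendon cells are specified by the transcription factors scleraxis (Scx) and mohawk (Mkx), lay down parallel collagen fibrils, and coat them with proteoglycans and glycoproteins that set fibril width and spacing. Several of these proteins, such as cartilage oligomeric matrix protein (Comp) and chondroadherin (Chad), were first known from cartilage, which has fibrils built on similar lines, and tendon genes are known to respond to mechanical load. In a whole-muscle library, fewer tendon cells and less RNA per tendon cell cannot be told apart.

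Since 6 of the genes moved together in the results below, the stretches just upstream of their transcription starts are shown first for 4 of these 6. The RefSeq promoter table for GRCm38.p6 matched 7 of the 10 genes (all but Comp, Scx and Mkx). Each run is the 250 bases before the start, written 5′ to 3′ on the gene's own strand, and capitals mark any match to 5 motifs searched on both strands. The motifs were the E-box CANNTG, read by factors of the scleraxis family, the SMAD motif CAGACA, the AP-1 motif TGANTCA, the TEAD motif GGAATG and the SOX motif ACAAAG.
Tnmd (chrX:133850758-133851007, plus strand): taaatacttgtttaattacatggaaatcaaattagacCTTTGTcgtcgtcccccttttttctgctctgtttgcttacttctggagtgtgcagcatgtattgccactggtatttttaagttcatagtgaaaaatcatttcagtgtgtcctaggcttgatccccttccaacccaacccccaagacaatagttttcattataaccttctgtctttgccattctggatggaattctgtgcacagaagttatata
Thbs4 (chr13:92794819-92795068, minus strand): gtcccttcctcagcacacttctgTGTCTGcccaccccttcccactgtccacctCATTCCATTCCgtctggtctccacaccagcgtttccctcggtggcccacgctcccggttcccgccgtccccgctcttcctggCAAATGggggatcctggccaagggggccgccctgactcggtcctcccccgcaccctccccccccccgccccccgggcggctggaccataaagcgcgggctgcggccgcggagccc
Chad (chr11:94564797-94565046, plus strand): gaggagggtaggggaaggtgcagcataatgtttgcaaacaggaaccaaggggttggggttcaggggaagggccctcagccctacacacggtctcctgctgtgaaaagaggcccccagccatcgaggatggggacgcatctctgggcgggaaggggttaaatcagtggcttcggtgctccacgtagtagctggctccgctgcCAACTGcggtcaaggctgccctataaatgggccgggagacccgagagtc
Fmod (chr1:134037004-134037253, plus strand): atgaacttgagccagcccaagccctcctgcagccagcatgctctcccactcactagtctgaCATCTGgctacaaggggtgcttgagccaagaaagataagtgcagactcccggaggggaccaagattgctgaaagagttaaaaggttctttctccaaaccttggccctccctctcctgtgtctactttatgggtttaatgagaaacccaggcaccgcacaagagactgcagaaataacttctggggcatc
The capitals in Tnmd are a SOX match read on the opposite strand, 213 bases before the start. Those in Thbs4 are, in order, a SMAD match at 227 bases, 2 TEAD matches at 197 and 192 bases that share 1 base, and an E-box at 115 bases. Chad and Fmod each hold an E-box, at 49 and 189 bases before the start. Over the 7 matched genes, 6 held an E-box, against 66.2% of 32851 RefSeq promoters of the same length. These 6 include Cilp2, whose sequence is not printed. Its window, 69887393 to 69887642, lies upstream of the RefSeq start but inside the gene span given below, which comes from another annotation. The end of the Tnmd window likewise lies inside its span given below, which starts at 133850980. For Tnxb the window, 34670285 to 34670534, lies before the span given below but inside the RefSeq gene span, which starts at 34660453. Each of the other motifs was found in 1 of the 7, against 17.1% of all promoters for SMAD, 6.7% for AP-1, 12.6% for TEAD and 16.5% for SOX, and the AP-1 match was in Tnxb. These are matches of letters in a short window and not known binding sites. No motif was present in all 4 sequences printed.

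In WT controls the 10 genes spanned a wide range of levels. On a scale of CPM (counts scaled to library size) per kilobase of transcript, which allows genes to be compared, the means were 51.9 for Fmod, 27.5 for Thbs4, 14.8 for Chad, 6.25 for Tnxb, 5.08 for Tnmd, 4.74 for Cilp, 3.95 for Comp, 3.72 for Scx, 2.50 for Cilp2 and 0.0871 for Mkx. Fmod, Thbs4 and Chad stood apart from each other in all 4 libraries, whereas the ranges of Tnxb, Tnmd and Cilp overlapped, as did those of Tnmd, Cilp, Comp and Scx and those of Scx and Cilp2, and Mkx lay under all of them. In WT diabetes the same scale gave 17.9 for Fmod, 12.2 for Thbs4, 4.94 for Tnxb, 3.52 for Cilp, 2.86 for Scx, 2.38 for Chad, 1.53 for Comp, 0.867 for Tnmd and 0.411 for Cilp2. Chad moved from the third place to the sixth and Tnmd from the fifth to the eighth, while Scx moved from the eighth to the fifth, though the ranges of Chad and Scx overlapped in WT diabetes.

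Depth was 33112459 to 56369917 estimated counts per library, and 3 counts correspond to 0.0906 CPM in the shallowest library. Summed markers of skeletal muscle fibres (Acta1, Ckm, Myh4 and 5 others) lay between 131100 and 300200 CPM in all 24 libraries. Mkx had only 2 to 22 counts per library, so its values carry large counting errors. Notch2 itself did not differ between the genotypes in controls (1.84 ± 0.068 CPM in WT and 1.87 ± 0.584 in Notch2-mKO, SD, n = 4; adjusted p = 0.993), and since whole-muscle reads mix all cell types and the tables give no exons, this level neither checks nor contradicts the deletion in fibres. The libraries also differed along a trend with base composition. The mean log2 level of 1492 genes under 42% GC minus that of 2375 genes over 56% GC, centred over all libraries, was -0.638 ± 0.322 for the WT controls, 0.397 ± 0.0738 for the unloaded and 0.367 ± 0.140 for the diabetic WT libraries (SD, n = 4). For Notch2-mKO it was -0.304 ± 0.253, 0.0299 ± 0.203 and 0.149 ± 0.140 in the same order. The tendon and cartilage genes have a median GC content of 55.3% against 50% for all genes tested, so a fit with every library's trend with GC content and transcript length removed was run beside the reported one.

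Most of these genes were lower after either treatment in both genotypes. In WT unloading 8 of the 10 passed the test, all lower than in controls, against 34.7% of the 13048 genes tested in either direction, 16.3% lower and 18.4% higher. In WT diabetes 6 passed, all lower, where 33.4% of all genes passed, 15.5% lower and 17.8% higher. In Notch2-mKO unloading 7 passed, all lower, where 7.31% of all genes passed, 3.2% lower and 4.11% higher. In Notch2-mKO diabetes 6 passed, all lower, where 5.59% of all genes passed, 2.54% lower and 3.05% higher. The median log2 fold change of the 10 was -1.62, -1.27, -1.34 and -1.34 in these 4 comparisons, and that of all genes lay between -0.019 and 0.021. A gene passed at a Benjamini-Hochberg adjusted p below 0.05 in edgeR's quasi-likelihood test over all genes tested.

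Tnmd, Thbs4, Comp, Chad, Fmod and Cilp2 passed as lower in all 4 comparisons, which 93 of the 13048 genes (0.713%) did. Because the 10 genes were chosen with earlier results of these data known, their counts beside those of all genes are descriptive only. Tnxb passed after unloading in both genotypes and Cilp after unloading in WT alone. Scx and Mkx passed in none. The genes that passed were also those in which all 4 treated libraries lay under all 4 controls, which was so for 16.0%, 14.1%, 6.23% and 9.18% of all genes in WT unloading, WT diabetes, Notch2-mKO unloading and Notch2-mKO diabetes. The 2 treatments of a genotype share their 4 control libraries, so a control library that is high or low enters both. Removal of the GC trend left the counts at 8, 6, 6 and 6 and brought the medians of the 10 to -1.37, -1.06, -1.28 and -1.21. The WT unloading changes became -1.23 for Thbs4, -1.81 for Comp, -2.18 for Chad, -1.52 for Fmod, -1.95 for Cilp2 and -0.74 for Tnxb. In WT diabetes they became -0.93 for Thbs4, -1.03 for Comp, -2.31 for Chad, -1.32 for Fmod and -2.32 for Cilp2, so among the genes that passed Tnmd alone moved further from 0. In a limma fit to the authors' own log2 values none of the 10 passed in Notch2-mKO unloading, where the 6 genes had adjusted p between 0.0616 and 0.0647 and 2 genes passed in all.

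**Figure D1:**
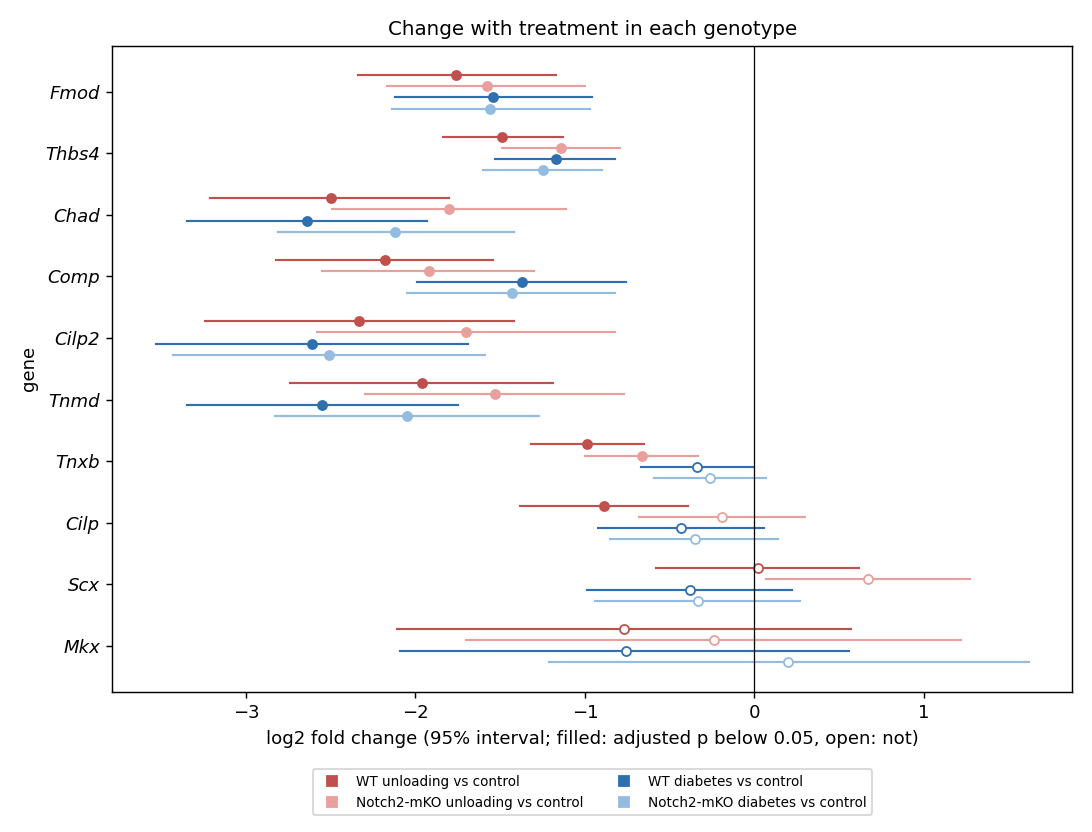
Log2 fold change of each gene (rows) against the controls of its genotype, with 95% intervals; filled points passed at an adjusted p below 0.05 and open points did not. The upper 6 genes lie left of 0 with filled points in all 4 comparisons, Tnxb and Cilp lie nearer to 0, and the intervals of Scx and Mkx in diabetes span 0.

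The 2 transcription factors passed in none of the 4 treatment comparisons. Mkx had too few counts to show whether it followed the matrix genes. Scx (chromosome 15, 76457452 to 76459458, plus strand), the basic helix-loop-helix factor that marks tendon progenitors, was at 8.97, 9.80, 5.09 and 6.03 CPM in the 4 WT controls. It was at 5.88, 11, 5.82 and 7.60 CPM in WT unloading and at 5.33, 4.04, 3.87 and 9.68 CPM in WT diabetes. The 3 sets overlapped, with log2 fold changes of 0.02 (SE 0.293, adjusted p = 0.968) and -0.38 (SE 0.294, adjusted p = 0.337). In Notch2-mKO it was at 7.54, 8, 5.69 and 6.66 CPM in controls, at 18.7, 10.8, 7.38 and 7.71 after unloading, and at 5.70, 6.16, 5.73 and 4.55 in diabetes. After unloading 2 libraries lay above all controls and the others within their range (log2 fold change 0.67, SE 0.291, adjusted p = 0.151). The diabetic value was -0.33 (SE 0.294, adjusted p = 0.540).

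Single libraries decided much of the Scx values. Without WT diabetes replicate 4, the highest of its group, the WT diabetes change became -0.76 and passed (adjusted p = 0.0456). It was 0.01 once the GC trend was removed. Scx lies on the opposite strand inside an intron of Bop1, a gene of ribosome assembly, and shares no exon base with it. No source used here says whether the counting kept strands apart, so unspliced Bop1 reads could not be told from Scx reads. Bop1 was at 43.6 ± 5.43 CPM in WT controls and 36.5 ± 4.77 in WT unloading (SD, n = 4), and in Notch2-mKO at 41.0 ± 5.54 and 45.4 ± 9.33. Replicate 1 of Notch2-mKO unloading was the highest library of its group for both Scx (18.7 CPM) and Bop1 (59.2 CPM).

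Mkx (chromosome 18, minus strand), a homeobox factor needed for tendon collagen fibril growth, was near the limit of detection in whole muscle. Its mean was 0.318 ± 0.140 CPM in WT controls, 0.184 ± 0.0863 after unloading and 0.184 ± 0.173 in diabetes (SD, n = 4), with 2 counts in the lowest libraries. In Notch2-mKO the means were 0.150 ± 0.0456, 0.129 ± 0.0783 and 0.175 ± 0.136 CPM. The groups overlapped in each comparison. In WT the 95% intervals of the log2 fold change were -2.11 to 0.57 after unloading and -2.09 to 0.56 in diabetes. In Notch2-mKO they were -1.70 to 1.22 and -1.21 to 1.62. The values thus allow a fall of several fold in WT and a sizeable change in either direction in Notch2-mKO.

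Tnmd (chromosome X, 133850980 to 133865577, plus strand) encodes tenomodulin, a membrane protein of mature tendon cells whose transcription scleraxis promotes. It fell in both treatments and both genotypes. WT controls were at 5.46, 6.93, 4.5 and 10.6 CPM, WT unloading at 0.573, 0.945, 2.81 and 2.77, and WT diabetes at 1.62, 1.11, 0.882 and 1.07. The unloaded WT libraries fell into a low pair and a higher pair, and both pairs lay under the lowest control. Tnmd was 3.9-fold lower after unloading (log2 fold change -1.96, SE 0.377, adjusted p = 0.000307) and 5.87-fold lower in diabetes (-2.55, SE 0.388, adjusted p = 3.788e-05). In Notch2-mKO the controls were at 6.96, 6.14, 5.09 and 7.49 CPM, the unloaded libraries at 0.948, 2.45, 3.05 and 2.41, and the diabetic ones at 1.46, 1.76, 1.17 and 1.80. The treated libraries were again all under the controls, 2.9-fold lower after unloading (-1.53, SE 0.370, adjusted p = 0.0154) and 4.15-fold lower in diabetes (-2.05, SE 0.379, adjusted p = 0.00505). With 43.0% GC Tnmd is one of the 2 genes of the 10 under the median GC content, and its WT changes were -2.27 and -2.77 with the GC trend removed.

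**Figure D2:**
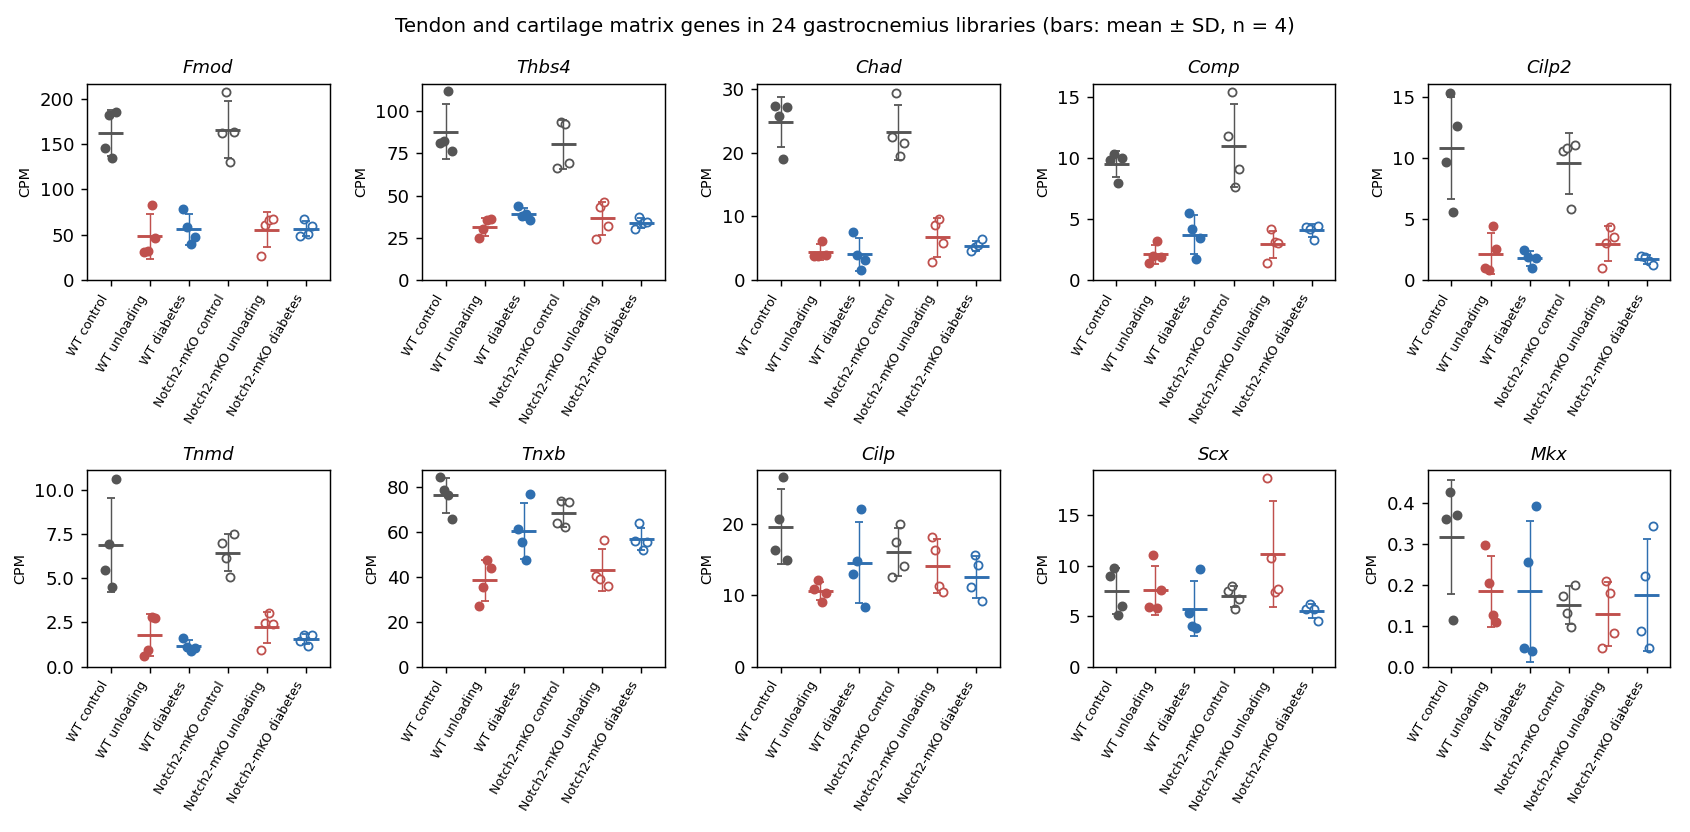
Level of each gene (CPM, linear axis from 0) in the 24 libraries; points are libraries, filled for WT and open for Notch2-mKO, and bars are the mean and SD of 4. For Fmod, Thbs4, Chad, Comp, Cilp2 and Tnmd the treated groups lie under the controls of both genotypes, and for Cilp, Scx and Mkx most groups overlap.

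The pair of pentameric thrombospondins in the set, Thbs4 and Comp, both fell. Thbs4 (chromosome 13, 92751590 to 92794818, minus strand), a matrix glycoprotein that organises collagen at tendon and at the myotendinous junction, was at 81.0, 82.4, 112.1 and 76.5 CPM in WT controls. It was at 24.6, 29.9, 35.2 and 36.0 CPM after unloading and at 44.0, 37.7, 38.9 and 35.4 in diabetes. The highest treated library was thus well under the lowest control. The log2 fold changes were -1.49 (SE 0.172, adjusted p = 2.06e-06) and -1.17 (SE 0.171, adjusted p = 2.405e-05). Notch2-mKO controls were at 66.2, 94.0, 92.2 and 69.5 CPM, unloaded libraries at 24.5, 43.3, 45.9 and 32.1, and diabetic ones at 30.2, 37.6, 33.5 and 34.1. Here too no treated library reached the controls (-1.14, SE 0.171, adjusted p = 0.00061 after unloading; -1.25, SE 0.171, adjusted p = 0.00043 in diabetes). Thbs4 had the smallest standard errors of the 6 genes that fell in all 4 comparisons.

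Comp (chromosome 8, 70373558 to 70382066, plus strand), which binds collagen fibrils as a bundle of identical arms, was at 9.84, 10.3, 7.98 and 10.1 CPM in WT controls. It was at 1.40, 1.97, 3.18 and 1.84 CPM after unloading and at 5.52, 4.22, 1.69 and 3.40 in diabetes. Unloading left Comp 4.54-fold lower (log2 fold change -2.18, SE 0.311, adjusted p = 1.356e-05), and diabetes 2.59-fold lower (-1.37, SE 0.299, adjusted p = 0.00109). In Notch2-mKO the controls were at 11.8, 15.4, 7.65 and 9.14 CPM, unloaded libraries at 1.40, 4.15, 3.07 and 3.03, and diabetic ones at 4.35, 4.20, 3.29 and 4.46. All treated libraries lay under the controls, 3.79-fold lower after unloading (-1.92, SE 0.304, adjusted p = 0.00095) and 2.7-fold lower in diabetes (-1.43, SE 0.297, adjusted p = 0.00923).

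The 2 leucine-rich repeat proteins, Fmod and Chad, also fell in each comparison. Fmod (chromosome 1, 134037254 to 134048277, plus strand) encodes fibromodulin, which binds type I collagen and limits fibril width, and it was the most strongly expressed of the 10. It was at 146, 183, 135 and 185 CPM in WT controls, at 30.2, 32, 83.0 and 46.6 after unloading, and at 77.9, 58.4, 39.1 and 47.4 in diabetes. Unloaded replicate 3 stood well above the others of its group and still under the controls. The changes were -1.76 (SE 0.284, adjusted p = 5.081e-05) and -1.54 (SE 0.282, adjusted p = 0.000226) on the log2 scale. Notch2-mKO controls were at 162, 208, 130.4 and 164 CPM, unloaded libraries at 26.4, 61.1, 66.2 and 67.6, and diabetic ones at 48.4, 67.0, 51.0 and 59.4. The changes there were nearly equal, -1.58 (SE 0.283, adjusted p = 0.003) after unloading and -1.56 (SE 0.282, adjusted p = 0.00505) in diabetes.

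Chad (chromosome 11, 94565047 to 94569127, plus strand) encodes a cartilage matrix protein that binds integrin and collagen. Its falls were among the largest in both WT comparisons, next to Cilp2 and Comp after unloading and Cilp2 and Tnmd in diabetes. WT controls were at 27.3, 25.7, 19.1 and 27.1 CPM, unloaded libraries at 3.67, 3.68, 6.15 and 3.96, and diabetic ones at 7.58, 3.90, 1.48 and 3.08. The mean after unloading was 17.6% of the control mean and in diabetes 16.1% (log2 fold changes -2.50, SE 0.344, adjusted p = 8.861e-06, and -2.64, SE 0.346, adjusted p = 1.071e-05). Notch2-mKO controls were at 22.5, 29.5, 19.5 and 21.5 CPM, unloaded libraries at 2.75, 8.61, 9.62 and 5.75, and diabetic ones at 4.48, 5.17, 5.43 and 6.38. The corresponding changes were -1.80 (SE 0.333, adjusted p = 0.00346) and -2.12 (SE 0.338, adjusted p = 0.00149). Chad lies within an intron of Acsf2, an acyl-CoA synthetase gene on the other strand, with no shared exon base. Acsf2 was at 3.36 ± 0.425 CPM in WT controls, 1.56 ± 0.327 after unloading and 4.81 ± 0.900 in diabetes (SD, n = 4). Its mean was under that of Chad in WT controls and WT unloading, but above it in WT diabetes, where Chad averaged 4.01 CPM. Acsf2 thus fell with Chad after unloading (-1.10, adjusted p = 0.000199) and rose in diabetes (0.52, adjusted p = 0.0407). In Notch2-mKO its values were -0.55 after unloading with no overlap (adjusted p = 0.0849) and 0.62 in diabetes (adjusted p = 0.0585).

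Of the 2 cartilage intermediate layer proteins, Cilp2 fell in all 4 comparisons and Cilp in 1. Cilp2 (chromosome 8, 69880369 to 69887687, minus strand) was at 9.69, 15.3, 5.54 and 12.6 CPM in WT controls, at 0.933, 0.781, 4.40 and 2.50 after unloading, and at 2.48, 1.84, 0.958 and 1.81 in diabetes. The spread within groups was wide, but the lowest control stayed above the highest treated library. The changes were -2.33 (SE 0.441, adjusted p = 0.000256) and -2.61 (SE 0.446, adjusted p = 0.000118). In Notch2-mKO it was at 10.6, 10.8, 5.81 and 11 CPM in controls, at 0.948, 3.03, 4.29 and 3.50 after unloading, and at 1.96, 1.90, 1.58 and 1.23 in diabetes. The changes were -1.70 (SE 0.428, adjusted p = 0.0197) and -2.51 (SE 0.447, adjusted p = 0.00446). The first of these depended on Notch2-mKO unloading replicate 1, without which it was -1.41 (adjusted p = 0.0523).

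Cilp (chromosome 9, 65265180 to 65280605, plus strand), a large matrix protein that binds TGF-beta 1, was at 16.4, 20.7, 26.7 and 14.9 CPM in WT controls and at 10.9, 12.2, 9.13 and 10.3 after unloading. This was 1.85-fold lower with no overlap (log2 fold change -0.89, SE 0.242, adjusted p = 0.006), or -0.67 (adjusted p = 0.0421) with the GC trend removed. WT diabetes, at 13.1, 14.9, 22.1 and 8.41 CPM, overlapped the controls (-0.43, SE 0.239, adjusted p = 0.172). Without its replicate 3 the change was -0.70 and passed (adjusted p = 0.0304). In Notch2-mKO the group means were 16.1 ± 3.35 CPM in controls, 14.1 ± 3.76 after unloading and 12.6 ± 2.98 in diabetes (SD, n = 4). These groups overlapped, with changes of -0.19 (adjusted p = 0.666) and -0.35 (adjusted p = 0.407). Replicate 3 was the highest library for Cilp in both control groups and in WT diabetes, groups in which it was the lowest for 5 of the 6 genes that fell in all 4 comparisons.

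Tnxb (chromosome 17, 34670535 to 34719815, plus strand) encodes tenascin-X, which lies between collagen fibrils and whose loss causes a form of Ehlers-Danlos syndrome. It fell after unloading and not measurably in diabetes. WT controls were at 84.6, 78.6, 76.5 and 65.8 CPM, unloaded libraries at 27.1, 35.3, 47.6 and 44.1, and diabetic ones at 61.5, 55.4, 47.5 and 76.9. The unloaded libraries were all under the controls, 1.98-fold lower (log2 fold change -0.99, SE 0.162, adjusted p = 5.95e-05), while diabetes overlapped them (-0.34, SE 0.161, adjusted p = 0.106). Without WT diabetes replicate 4 the diabetic change was -0.48 and passed (adjusted p = 0.0299). In Notch2-mKO the controls were at 63.9, 73.8, 62.0 and 73.3 CPM, unloaded libraries at 40.6, 39.0, 56.6 and 36.0, and diabetic ones at 55.8, 63.9, 52.0 and 55.7. Unloading gave -0.66 (SE 0.161, adjusted p = 0.0162), which became -0.51 (adjusted p = 0.0522) with the GC trend removed, and diabetes gave -0.26 (SE 0.160, adjusted p = 0.347). The last exon of Tnxb shares 3 bases with Cyp21a2-ps, a pseudogene on the other strand.

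Within groups the 6 genes that fell in all 4 comparisons tended to be high or low in the same libraries. In WT unloading replicate 1 was the lowest of the 4 for 5 of the 6 genes and replicate 3 the highest for 5, and their summed level was 61.4 CPM in the first and 134.8 in the second. In WT diabetes replicate 1 was the highest for 6 of 6 (139 CPM summed) and replicate 3 the lowest for 5 (83.0 CPM). Notch2-mKO unloading replicate 1 was the lowest for 6 of 6, at 56.9 CPM summed against 114 to 132 in the other 3 libraries. Among controls replicate 3 was the lowest for 5 of 6 in both genotypes, and in WT it was also the highest for Thbs4. The summed level was 279 to 323 CPM in WT controls and 261 to 363.5 in Notch2-mKO controls, and at most 139 CPM in treated libraries. The 6 genes were taken because they fell in all 4 comparisons, each without overlap. Their sums therefore had to lie under the controls of the same genotype. The causes of the spread between libraries were not tested.

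**Figure D3:**
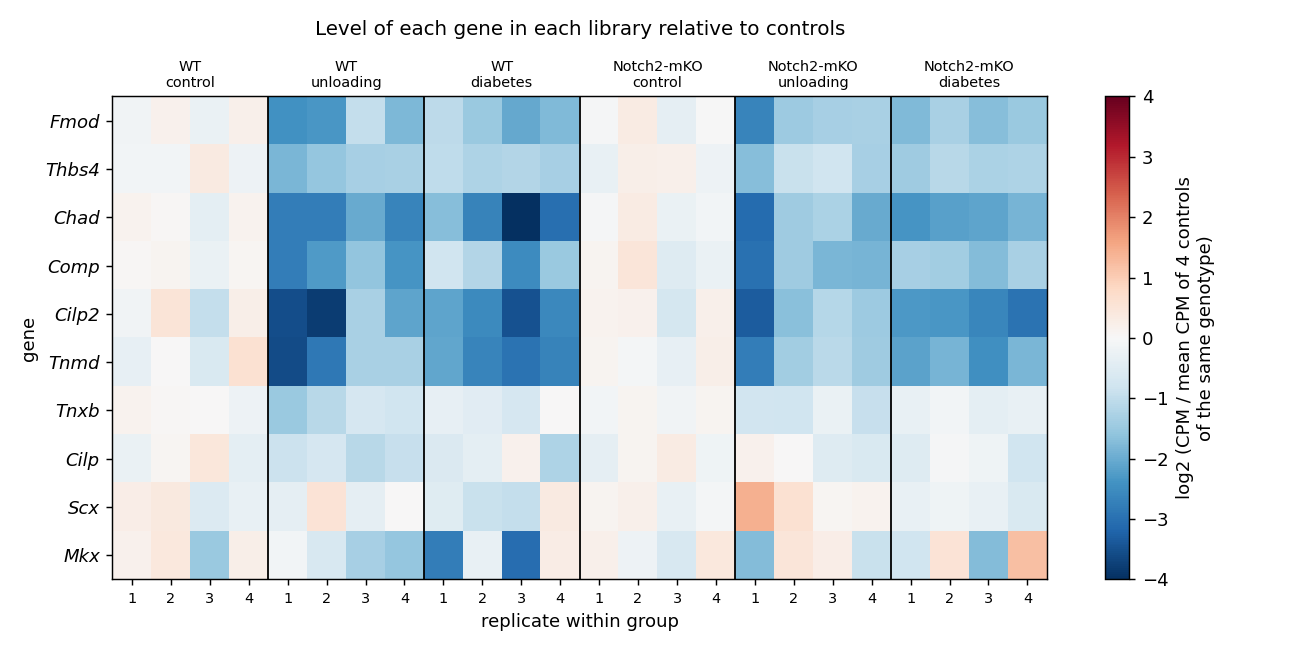
Log2 ratio of each gene's CPM in each library (columns, grouped by genotype and treatment) to the average over its genotype's 4 control libraries. Darker blue is lower: the upper 6 rows are blue in all treated libraries, with replicate 1 of both unloading groups the darkest for most genes, and the lower 4 rows are paler and mixed.

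Each of the 10 was set against the mean of the other 9 over the 24 libraries, on standardised log2 CPM. Pearson's r was between 0.897 and 0.933 for Tnmd, Thbs4, Comp, Chad, Fmod and Cilp2, 0.71 for Tnxb, 0.33 for Cilp, 0.275 for Mkx and -0.025 for Scx. With each group's mean removed, which leaves the spread between replicates, r was 0.715 to 0.822 for Tnmd, Comp, Chad, Fmod and Cilp2, 0.479 for Thbs4, 0.598 for Tnxb, 0.148 for Mkx, -0.193 for Scx and -0.521 for Cilp. Cilp was thus low in the libraries of a group in which the other genes were high. Among all other genes, those most like the mean of the 10 over the 24 libraries were Mfap4 (r = 0.945), Ergic1 (0.943), Ltbp4 (0.933), Evc (0.930), Slc38a10 (0.928) and Steap3 (0.926). With group means removed they included Ltbp4 (0.882), Steap3 (0.872), Inppl1 (0.862), Clcn1 (0.860) and Hhatl (0.849). These are descriptions over libraries that share groups, depth and base-composition trends, and Clcn1 and Hhatl are genes of the muscle fibre.

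The 2 treatments were also set against each other. In WT, Tnxb was the single gene of the 10 to pass, 1.57-fold higher in diabetes than after unloading (log2 fold change 0.65, SE 0.161, adjusted p = 0.0229), where 3.56% of all genes passed and 2.31% were higher. The 2 groups overlapped by 1 library of diabetes, at 47.5 CPM against a highest unloaded value of 47.6. The call was lost without WT unloading replicate 1 (0.51, adjusted p = 0.0858) or 2 (0.61, adjusted p = 0.074), without WT diabetes replicate 4 (0.51, adjusted p = 0.0993), and in a fit to the 2 groups alone (0.66, adjusted p = 0.116). Comp was at 3.70 ± 1.6 CPM in diabetes and 2.10 ± 0.762 after unloading (0.81, adjusted p = 0.161), and passed without WT diabetes replicate 3 (1.05, adjusted p = 0.0469). In Notch2-mKO none of the 10 passed, where 3.07% of all genes did. Scx came nearest, with all 4 diabetic libraries under all 4 unloaded ones, as was so for 4.84% of all genes (-1.01, SE 0.294, adjusted p = 0.0622). It passed without Notch2-mKO unloading replicate 3 (-1.16, adjusted p = 0.0443) or 4 (-1.14, adjusted p = 0.0435) and in DESeq2 (-1.0, adjusted p = 0.0201).

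No gene of the 10 differed between the genotypes. In controls, after unloading and in diabetes 0 of the 10 passed, where 0% of all genes passed in edgeR, and none had an unadjusted p under 0.05, against 695, 1345 and 692 of all genes. The smallest adjusted p among the 10 was 0.893, 0.517 and 0.895. DESeq2 also called 0 of the 10 in each of the 3, and called 1, 5 and 0 of all genes. The intervals still allow sizeable differences. In controls the log2 difference of Notch2-mKO from WT was 0.03 for Fmod (95% interval -0.53 to 0.60), -0.13 for Thbs4 (-0.48 to 0.22), -0.10 for Tnmd (-0.83 to 0.63), -0.09 for Chad (-0.75 to 0.56), 0.21 for Comp (-0.39 to 0.80) and -0.18 for Cilp2 (-1.02 to 0.66). After unloading the values were 0.21 for Fmod (-0.36 to 0.78) and for Thbs4 (-0.14 to 0.56), 0.33 for Tnmd (-0.45 to 1.11), 0.61 for Chad (-0.08 to 1.30), 0.47 for Comp (-0.18 to 1.11) and 0.46 for Cilp2 (-0.45 to 1.36). In diabetes they were 0.02 for Fmod, -0.20 for Thbs4, 0.40 for Tnmd, 0.43 for Chad (-0.27 to 1.13), 0.14 for Comp and -0.08 for Cilp2. The largest in unloaded muscle among the other 4 was Scx, at 11.1 ± 5.26 CPM in Notch2-mKO and 7.58 ± 2.44 in WT (0.55, interval -0.04 to 1.15).

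The difference between the genotypes' responses was tested as an interaction. For unloading, 0 of the 10 passed, where 0% of all genes passed and 1875 had an unadjusted p under 0.05, none of them among the 10. The estimates (Notch2-mKO response minus WT response) ran from 0.17 for Fmod to 0.70 for Chad and Cilp, and from -0.03 to 0.75 with the GC trend removed. Cilp had the smallest p (0.70, SE 0.339, adjusted p = 0.350), and its interval ended at 1.39. DESeq2 called 122 genes for this difference and none of the 10. For diabetes, 0 of the 10 and 0% of all genes passed, with 1142 genes and none of the 10 at an unadjusted p under 0.05. The estimates ran from -0.07 for Thbs4 to 0.97 for Mkx, and those of Fmod (-0.02, interval -0.82 to 0.79) and Scx (0.05, interval -0.81 to 0.90) lay nearest to 0.

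**Figure D4:**
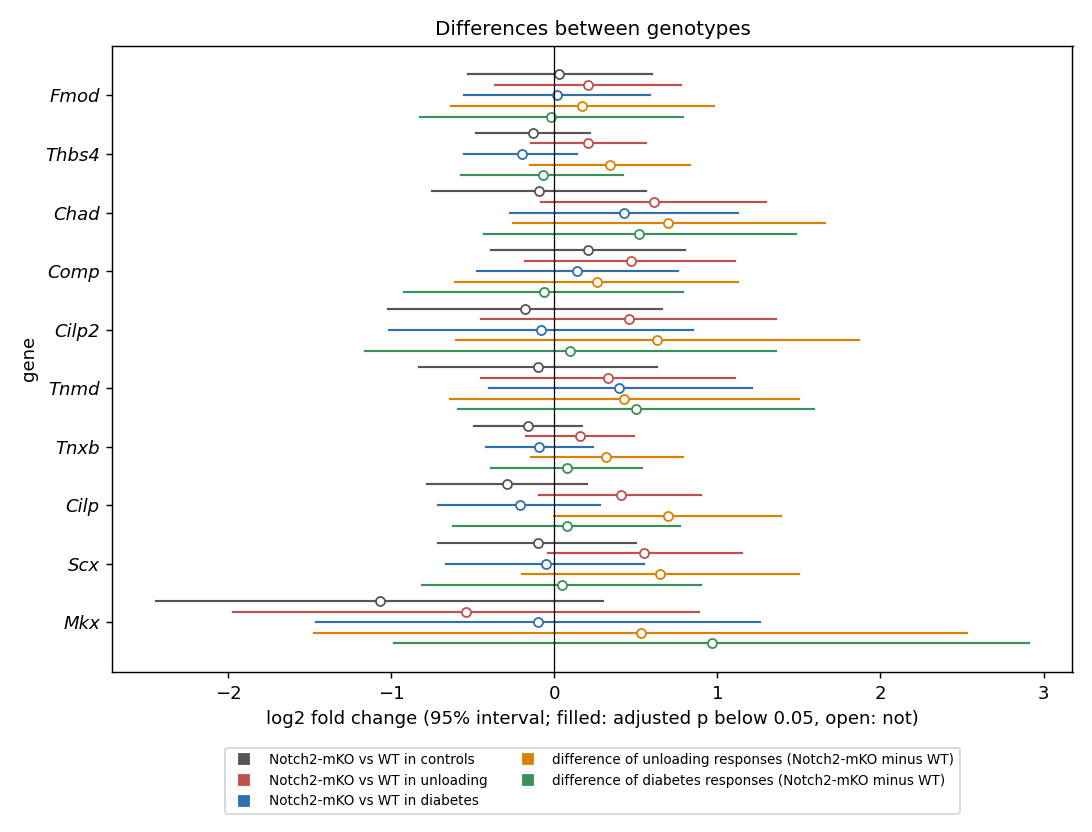
Log2 difference of Notch2-mKO from WT in each condition, and of the 2 genotypes' responses to each treatment, with 95% intervals; open points did not pass. No point is filled, the intervals include 0, and those of Mkx are the widest.

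Other genes of tendon and cartilage were taken as lists, named here by the genes with the smallest p. A list of 13 collagens held those of the fibrils and their surface together with the Col6 genes, whose product forms beaded microfilaments. In WT unloading 13 of 13 passed as lower, led by Col6a2 (-1.98, adjusted p = 8.654e-05), Col6a1 (-1.68), Col1a2 (-2.07) and Col6a3 (-1.69), and the median of the 13 was -1.68. In WT diabetes 11 of 13 were lower (median -1.84), led by Col5a3 (-2.60, adjusted p = 6.346e-05) and Col1a1 (-2.67). In Notch2-mKO 7 of 13 were lower after unloading (median -1.07), led by Col11a1 (-2.06, adjusted p = 0.00656), and 12 of 13 in diabetes (median -1.49), led by Col5a3 (-2.35, adjusted p = 0.00446). Of all genes tested, 16.3% were lower in WT unloading, 15.5% in WT diabetes, 3.2% in Notch2-mKO unloading and 2.54% in Notch2-mKO diabetes. None of the 13 collagens passed as higher. Like the 10 genes, the lists were chosen with earlier results of these data known, so their counts are descriptive only. With the GC trend removed the counts were 12, 10, 4 and 11.

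The other small leucine-rich proteins, relatives of Fmod, went both ways. In WT unloading 4 of the 10 tested were lower and 3 higher (median -0.06), and in WT diabetes 3 lower and 4 higher (median 0.00). Over all genes 16.3% were lower and 18.4% higher in WT unloading, and 15.5% and 17.8% in WT diabetes. Bgn, which encodes biglycan, fell from 63.5 ± 8.12 to 27.2 ± 7.06 CPM after unloading (SD, n = 4; log2 fold change -1.22, adjusted p = 3.823e-06), and Prelp and Podn fell by 1.01 and 0.99 on the log2 scale. Aspn, which encodes asporin, rose from 1.19 ± 0.874 to 4.36 ± 1.13 CPM after unloading (1.88, adjusted p = 0.000255) and to 4.56 ± 1.45 in diabetes (1.95, adjusted p = 0.000212). In WT diabetes Ogn, which encodes osteoglycin, rose by 1.47 (adjusted p = 0.000533), and Prelp (-0.80) and Kera (-2.0) fell. In Notch2-mKO 1 of 10 passed per treatment, where 3.2% of all genes were lower after unloading and 2.54% in diabetes. These were Prelp, lower after unloading (-0.64, adjusted p = 0.014), and Kera, lower in diabetes (-1.55, adjusted p = 0.036). With the GC trend removed 4 were lower and 1 higher in WT unloading (median -0.3), and 3 lower and 2 higher in WT diabetes (median -0.29). In Notch2-mKO 2 were then lower after unloading and 1 in diabetes.

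Among 10 tested regulators of tendon identity (TGF-beta and GDF ligands, receptors, SMADs and EGR factors), 3 were lower and 2 higher in each WT comparison, with a median of -0.17 in both. Over all genes 16.3% were lower and 18.4% higher in WT unloading and 15.5% and 17.8% in WT diabetes, so the 2 higher are near those shares. With the GC trend removed 2 were lower in WT unloading and 3 in WT diabetes. Tgfb1 fell in WT by 0.83 after unloading (adjusted p = 3.06e-05) and by 0.82 in diabetes (adjusted p = 5.194e-05), and Tgfb3 and Smad3 were the other two that fell. Tgfbr1, a TGF-beta receptor, rose from 8.14 ± 3.30 to 19.97 ± 5.10 CPM after unloading and to 20.5 ± 6.86 in diabetes (1.30 and 1.33), and Tgfb2 rose by 0.77 and 0.65. In Notch2-mKO none passed after unloading, and Tgfb1 (-0.51, adjusted p = 0.0239) and Smad3 (-0.89, adjusted p = 0.0471) were lower in diabetes, of which none passed with the GC trend removed. Smad3 after unloading and Tgfb3 in diabetes stood outside the 4 smallest p and were named after their values were seen.

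Of 18 cartilage genes 9 were expressed enough to be tested, and Acan, Col9a3, Matn1, Matn3, Hapln1, Cnmd, Ucma, Snorc and Col10a1 were not. Matn4 was lower in WT, from 1.43 ± 0.348 CPM to 0.408 ± 0.191 after unloading (-1.81, adjusted p = 0.00255) and 0.385 ± 0.205 in diabetes (-1.89, adjusted p = 0.00189). Col9a2, a collagen of cartilage at under 0.4 CPM, was also lower in both (-2.47 and -2.59), and Sox5 was higher in WT diabetes (1.5, adjusted p = 0.00706). In each WT comparison 2 of the 9 tested were thus lower, against 16.3% of all genes in unloading and 15.5% in diabetes. In WT diabetes 1 of the 9 was higher, against 17.8% of all genes. With the GC trend removed 1 of the 2 lower calls was left in each WT comparison. No cartilage gene passed in Notch2-mKO. Tnc, the tenascin-C gene, fell after unloading in WT (-1.43, adjusted p = 0.00719) and in both Notch2-mKO treatments (-1.30, adjusted p = 0.0466, and -1.41, adjusted p = 0.0401), and Thbs3 fell in WT unloading (-0.80, adjusted p = 0.0174). Of the 4 other thrombospondins and tenascins tested, 2 were thus lower in WT unloading, against 16.3% of all genes. In Notch2-mKO 1 was lower per treatment, against 3.2% of all genes after unloading and 2.54% in diabetes. With the GC trend removed 1 of the 2 calls in WT unloading was left, and neither Notch2-mKO call of Tnc. Of 8 muscle-side genes of the myotendinous junction, Vcl (-0.59), Tln1 (-0.32) and Col22a1 (-0.68) fell and Itgb1 rose (0.40) in WT unloading. There 16.3% of all genes were lower and 18.4% higher. With the GC trend removed 1 of the 8 was lower in WT unloading and 2 higher. Vcl, the vinculin gene, was also lower in WT diabetes (-0.35), where Itgb1 was again higher (0.40). These 2 calls of the 8 are near the 15.5% lower and 17.8% higher of all genes. Vcl was lower in Notch2-mKO unloading too (-0.45), where 3.2% of all genes were lower, a call lost with the GC trend removed.

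**Figure D5:**
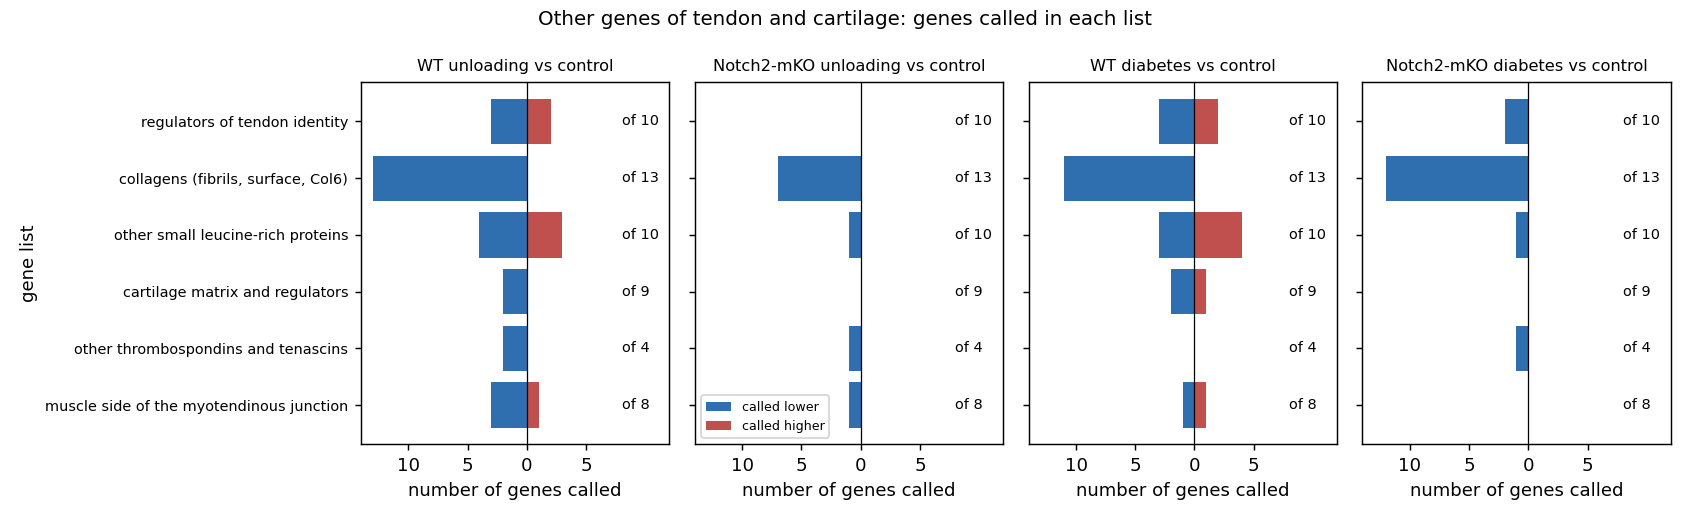
Number of genes of each list that passed as lower (blue, to the left) or higher (red, to the right) in each treatment comparison, with the number tested at the right. The collagen bars are the longest, at 13, 7, 11 and 12 lower and 0 higher, and the bars of the other lists are shorter and in WT partly to the right.

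Markers of other cells of the muscle were read in the same libraries. The summed level of 11 fibroblast markers was 738 to 1141 CPM in WT controls, 959 to 1350 after unloading and 1167 to 1576 in diabetes, and in Notch2-mKO 815 to 1232, 707 to 1207 and 1115 to 1477. In WT unloading 5 of the 11 were lower and 1 higher, in WT diabetes 2 and 2, and in Notch2-mKO 1 was lower per treatment. Over all genes 34.7% passed in WT unloading (16.3% lower, 18.4% higher) and 33.4% in WT diabetes (15.5% lower, 17.8% higher). In Notch2-mKO 3.2% of all genes were lower after unloading and 2.54% in diabetes. The fibroblast count in WT diabetes is near the background, and these shares apply to the other marker counts given here as well. With the GC trend removed the fibroblast counts were 3 lower and 1 higher in WT unloading and 2 and 1 in WT diabetes. The 8 fibre markers summed to 247600 to 300200 CPM in WT controls, 167800 to 219100 after unloading and 166500 to 227900 in diabetes, and in Notch2-mKO to 234700 to 265300, 131100 to 235300 and 200400 to 224700. They were thus under the controls in every treated WT library, with 3 of 8 passing as lower after unloading and 5 of 8 in diabetes, and 2 and 1 in Notch2-mKO. Once the GC trend was removed these counts were 2, 1, 2 and 1, and the WT medians went from -0.32 and -0.40 to -0.10 and -0.10. Endothelial markers summed to 243 to 310 CPM in WT controls, 177 to 215 after unloading and 203 to 255 in diabetes, and macrophage markers to 64.8 to 75.3, 45.9 to 59.3 and 59.1 to 74.1. Of the 8 macrophage markers 4 were lower after unloading in WT. Of the 8 endothelial markers 2 were lower in each WT comparison, near the share of all genes, and 3 in Notch2-mKO unloading. After removal of the GC trend 3 macrophage markers were lower in WT unloading, and 3 endothelial markers were lower there and 1 lower and 1 higher in WT diabetes. Schwann cell markers (45.8 to 87.7, 60.1 to 84.8 and 46.9 to 65.4 CPM) and adipocyte markers (26.8 to 71.0, 38.5 to 101 and 20.8 to 84.0) overlapped between WT controls and treated groups. The sum of smooth muscle and pericyte markers overlapped too (86.2 to 112, 85.4 to 113 and 94.1 to 126), but its members went both ways, with 3 of the 6 tested lower and 1 higher in each WT comparison and 3 lower in Notch2-mKO diabetes. In WT diabetes Cspg4 (-1.23, adjusted p = 4.496e-05), Mcam (-0.78) and Pdgfrb (-0.60) fell and Rgs5 rose from 15.1 ± 7.07 to 43.2 ± 10.6 CPM (SD, n = 4; 1.51, adjusted p = 0.000185). In WT unloading Cspg4 (-0.77), Mcam (-0.67) and Tagln (-0.48) fell and Rgs5 rose (1.22). After that removal 1 of the 6 was lower in WT unloading, 3 in WT diabetes and 2 in Notch2-mKO diabetes. Acta2 is listed at 0 in all 24 libraries. The part of cell composition in the results was not tested.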

How the data were processed

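The 24 whole-gastrocnemius libraries were compared from 4 deposited tables (1 per genotype and treatment, each with its 4 controls; control columns were identical where a genotype's 2 tables repeat them). Per the file headers, the raw columns hold the estimated counts of RefSeq genes that the authors deposited, many of them not whole. The other columns are deposited log2 values that the authors normalized, relative per the file headers to the mean of the table's controls. Per the submitters' processing notes the genome was mm10, and no source used here names the aligner or counter. Estimated counts were rounded, and genes with low counts were removed (filterByExpr over the 6 groups), leaving 13048, among them all 10 genes described. All 24 libraries entered 1 edgeR 4.0.16 quasi-likelihood fit with TMM factors (R 4.3.3) and 11 contrasts, with Benjamini-Hochberg adjustment over all genes tested and a threshold of 0.05. CPM are per TMM-scaled library. Gene positions and lengths come from GENCODE M21 (GRCm38) and promoters from RefSeq.

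Alternatives were upper quartile factors, no filter on low counts, the replicate number as a block, correction of every library for GC content and transcript length (spline with 4 degrees of freedom), both together, the compared groups alone, each library left out, limma 3.58.1 on the deposited log2 values within each table, and DESeq2 1.42.0. The 10 genes and the lists of other genes were chosen with earlier results of these data known. Of each list, up to 4 genes with the smallest p in a comparison were named. Replicates of a group correlated at 0.969 to 0.987 and none agreed within counting noise. The fitting code was tested on simulated data. Depth was 33112459 to 56369917 counts, and limits from counts cover counting error only.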

Additional observations from a re-analysis of the deposited data

Results flagged for a closer look

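Of 60 groups of 4 libraries (10 genes in 6 groups), 4 held a library whose gap to the next was large for the range of its group (Dixon's criterion, which chance meets in about 1 of 20 groups). Thbs4 was at 112.1 CPM in replicate 3 of the WT controls, against 76.5 to 82.43 in the others. Chad was at 6.154 CPM in replicate 3 of WT unloading, against 3.67 to 3.961. Fmod was at 26.35 CPM in replicate 1 of Notch2-mKO unloading, against 61.08 to 67.6. Cilp2 was at 5.813 CPM in replicate 3 of the Notch2-mKO controls, against 10.57 to 11.04. The causes were not tested.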

How the results depend on the processing

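The 6 genes that fell in all 4 treatment comparisons gave 384 values under the alternatives, with log2 fold changes from -3.14 to -0.90, none reversed and 7 no longer passing. For the 10 genes against controls, and for Scx, Comp and Tnxb in diabetes against unloading, 693 of 724 values kept direction and call. Differences between genotypes are not among these values. Where calls changed, the cause was not tested. Limma, run on the log2 values of the authors, called 0 of the 10 genes and 2 of all genes in Notch2-mKO unloading (954 in the reported fit), and 1854 in Notch2-mKO diabetes (730 in the reported fit). A fit to the compared groups alone called 331 and 1592 genes in these 2 comparisons, DESeq2 called 1457 and 1119, and the block with GC removal called 468 in diabetes. For diabetes against unloading in WT, the groups alone gave 0 of the 10 genes and 257 of all (464 reported), and the block with GC removal 0 of the 10. In Notch2-mKO DESeq2 gave 1 of the 10 (Scx) and 605 of all (400 reported). Between genotypes, where edgeR called 0, upper quartile factors, the groups alone and DESeq2 each called 1 gene in controls, the groups alone 1 and DESeq2 5 after unloading, and DESeq2 122 for the difference of unloading responses. The log2 change of Scx turned to -0.02 in WT unloading with upper quartile factors, and in WT diabetes to 0.01 with GC removal and 0.05 with the block too. Mkx in Notch2-mKO diabetes turned to -0.08 with the block and GC removal.

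With single libraries left out, all genes called ranged from 411 to 1127 in Notch2-mKO unloading and from 153 to 995 in Notch2-mKO diabetes, lowest without control replicates 2 and 4. They ranged from 278 to 468 and from 195 to 342 for diabetes against unloading in WT and Notch2-mKO, where 0 to 2 and 0 to 1 of the 10 genes passed. Between genotypes they ranged from 0 to 2 in controls, 0 to 1 after unloading and 0 to 1 in diabetes, and for the differences of responses from 0 to 427 (unloading) and 0 to 62 (diabetes), the highest both without WT control replicate 4. Scx in WT unloading ranged from -0.22 to 0.17, and Mkx in Notch2-mKO from -0.57 to 0.04 after unloading and from -0.32 to 0.52 in diabetes.

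The labels repeat replicate numbers 1 to 4 across groups and do not say what they stand for. With group means removed, 7 of 60 same-numbered pairs had a correlation over 0.1, the highest being 0.326 for a pair numbered 3. By the same measure 8 of 24 libraries correlated best with their own number. Whether same-numbered libraries share a batch was not tested. With the replicate block 8, 6, 7 and 6 of the 10 genes passed in the 4 treatment comparisons as in the reported fit, and 4371, 4196, 729 and 488 of all genes. Counts of 2 to 22 limit what can be said of Mkx.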
